A study of Mus musculus with 23 samples.

Results

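Fgf4, Fgf5, Fgf8, Fgfr2, Nodal, Lefty2, Bmp4, Wnt3, Cer1 and Furin carry the signals of the gastrulating mouse embryo, and their DNA methylation was described in the epiblast and the extra-embryonic ectoderm (ExE). The genes were chosen by name, with earlier results of these data known, and their windows by position. A window is a stretch of the genome with a single percentage of methylated cytosines per library, as deposited. A window was counted for a gene if it overlapped the RefSeq gene body or the 5000 bp upstream of it on GRCm38. This gave 95 of 333984 windows at embryonic day (E) 6.5 and 109 of 402812 windows at E7.5, called member windows. The 10 genes stand among 20558 autosomal protein-coding genes with a window. The window that holds the 5′ end of a gene is called its start window, and the mean of its other windows is called its gene region.

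These genes act in a loop between the epiblast and the ExE. FGF4 from the epiblast acts on FGFR2 in the trophoblast, and the convertase FURIN, made in the ExE, cleaves the NODAL precursor. NODAL keeps up Bmp4 expression in the ExE, BMP4 induces Wnt3 in the proximal epiblast, and WNT3 in turn feeds Nodal expression, while LEFTY2 and CER1 are secreted inhibitors that limit NODAL signalling. FGF5 is a classical marker of the implanted epiblast, and FGF8 is needed for cells to leave the primitive streak. In most tissues CpG-rich promoters stay unmethylated and gene bodies are methylated, and the ExE is known as a tissue with a lower genome-wide level and with methylation at some CpG-rich promoters.

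The study crossed C57BL6/Babr (B6) and CAST/Ei (CAST) mice in both directions, with the maternal strain named first, so that the parental alleles could be told apart by strain SNPs. At E6.5 whole-genome bisulphite libraries were made by post-bisulphite adaptor tagging (PBAT) from part of the chromatin of pooled epiblasts or ExE, and at E7.5 from single embryos at greater depth. Of the 23 libraries, B6/CAST and CAST/B6 each have 3 from epiblast and 2 from ExE at E6.5, and 2 from each tissue at E7.5. The third E6.5 cross, matDKO/CAST, has 2 epiblast and 3 ExE libraries. Its mothers carried floxed Dnmt3a and Dnmt3b, both deleted in growing oocytes by Zp3-Cre, on a mixed B6 and 129 background, and were mated to CAST males, so that the embryos were heterozygous for both genes and could methylate DNA after fertilization. No library of the other crosses carries these alleles. The deposited values have no read numbers, so the depth behind a single percentage is unknown. E6.5 and E7.5 differ in protocol and in the placing of windows, so that day and protocol cannot be told apart, and values of the 2 days are set side by side only.

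Mean methylation over autosomal windows ran from 65.9 to 79.4% in wild-type E6.5 epiblast, from 53.5 to 66.2% in E6.5 ExE, from 53.1 to 54.7% and 39.6 to 41.8% in matDKO/CAST epiblast and ExE, and from 71.7 to 75.6% and 56.1 to 59.2% in E7.5 epiblast and ExE. The median window was 16.6 percentage points higher in epiblast than in ExE at E6.5 and 16.5 points higher at E7.5, and the values were not rescaled, so all differences below stand against this shift. The start window of Elf5, which trophoblast is known to keep less methylated, averaged 82.5 and 89.3% in E7.5 epiblast of B6/CAST and CAST/B6 and 65 and 62.8% in ExE. That of Pou5f1 averaged 22.8 and 13.5% in epiblast and 39.7 and 38.1% in ExE. At E6.5 the Elf5 window averaged 78.2 and 89.4% in epiblast and 71.2 and 78.3% in ExE, gaps smaller than that of the median window. The E6.5 Elf5 values overlapped in CAST/B6, with ExE up to 85.2% and epiblast from 79.55%. The E6.5 Pou5f1 window averaged 4.8 and 2.8% in epiblast and 31.4 and 46.8% in ExE. At the imprinted Peg3 promoter, methylated on the maternal allele in wild type, matDKO/CAST gave 0% in the 1 epiblast library with a value and 8.22% in ExE (n = 3), against group means of 55.3 to 79.8% in wild type. The start windows of the imprinted Mest, Kcnq1ot1 and Plagl1 were likewise lower in matDKO/CAST than in either wild-type cross in both tissues. The wide Snrpn window was lower in epiblast (45% against 56.5% in B6/CAST) but not in ExE (24.2 against 17.7%), and the Grb10 window averaged under 4% in every E6.5 group. A separate E6.5 check is that the headings of 5 columns bear the word reimport, including both B6/CAST ExE libraries, and that CAST/B6 libraries have none.

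Promoter sequence is shown for 4 of the 10 genes, namely Wnt3, Fgf4 and Bmp4, whose start windows were called higher in ExE at E7.5, and Cer1, whose start window is long and poor in CpG. The densest start windows, those of Fgf8 and Fgf5 (117 and 65.1 CpG per kb), did not pass the test. Each run is the 250 bases upstream of the RefSeq start, 5′ to 3′ on the strand of the gene, from the RefSeq annotation of GRCm38.p6, with every CG dinucleotide, the unit that is methylated, in capitals. CG reads the same on both strands. Among 32851 promoters of this kind the median number of CG was 6, and 92.1% held at least 1.

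Wnt3 (chr11:103773925-103774174, plus strand, 22 CG, percentile 85.2): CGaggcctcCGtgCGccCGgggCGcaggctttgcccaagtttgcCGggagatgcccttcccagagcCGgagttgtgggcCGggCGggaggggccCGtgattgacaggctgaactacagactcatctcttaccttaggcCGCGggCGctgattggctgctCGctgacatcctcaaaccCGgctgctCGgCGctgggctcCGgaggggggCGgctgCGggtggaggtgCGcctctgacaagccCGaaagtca

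Fgf4 (chr7:144861136-144861385, plus strand, 21 CG, percentile 83.7): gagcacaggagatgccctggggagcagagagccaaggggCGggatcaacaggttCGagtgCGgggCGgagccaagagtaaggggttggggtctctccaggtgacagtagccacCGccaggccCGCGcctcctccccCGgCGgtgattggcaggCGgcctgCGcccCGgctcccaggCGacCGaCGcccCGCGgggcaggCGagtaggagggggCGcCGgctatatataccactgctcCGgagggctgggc

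Bmp4 (chr14:46390670-46390919, minus strand, 11 CG, percentile 64.4): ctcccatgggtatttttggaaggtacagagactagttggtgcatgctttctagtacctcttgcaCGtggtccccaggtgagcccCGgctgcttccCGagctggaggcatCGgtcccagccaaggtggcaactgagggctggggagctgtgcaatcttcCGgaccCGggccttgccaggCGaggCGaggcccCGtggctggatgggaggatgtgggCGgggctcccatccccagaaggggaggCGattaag

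Cer1 (chr4:82885152-82885401, minus strand, 5 CG, percentile 44.4): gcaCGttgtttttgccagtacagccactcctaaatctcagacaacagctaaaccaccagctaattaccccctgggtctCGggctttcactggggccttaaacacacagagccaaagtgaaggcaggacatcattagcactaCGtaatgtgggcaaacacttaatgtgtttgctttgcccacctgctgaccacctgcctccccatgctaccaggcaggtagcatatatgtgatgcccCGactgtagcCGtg

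The Wnt3 and Fgf4 stretches hold more than 4 in 5 promoters do, and the Cer1 stretch is below the median. Of the other genes, Fgf5 had 24 CG, Nodal 3, Fgfr2 2 and Furin 6 at a start close to the one used here and 40 at a second start inside the gene. Fgf8 and Lefty2 had no entry.

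The first question was how the tissues differ at the start windows, where the 10 genes ranged from almost no methylation to over 70%. At E7.5 the start windows of Fgf4, Bmp4 and Wnt3, 3 ligand genes, were higher in ExE than in epiblast, with differences of 5.49 to 9.11 points at levels under 22%. Those of Fgfr2, Lefty2 and Furin were higher in epiblast by 5.67 to 9.89 points, and each of these 3 turned lower once the mean of each library was subtracted (-10.7, -6.57 and -6.44 points). The start windows of Fgf5, Fgf8, Nodal and Cer1 did not pass the test (limma on percentages, adjusted p under 0.05). With library means subtracted, those of Fgf5, Fgf8 and Nodal were called higher in ExE (-19.6, -18.3 and -21.4 points, adjusted p = 0.000286, 0.000275 and 0.000631), and that of Cer1 turned and was called higher in ExE too (-12.0 points, 0.0227). The subtraction moves every window of a library by the same amount. A window with almost no methylation in either tissue, as at Fgf8, then comes out higher in ExE by construction. At E6.5 the start windows of Fgf4, Bmp4 and Wnt3 did not pass, and with library means subtracted they were called higher in ExE (-20.5, -22.0 and -22.8 points, adjusted p = 0.012, 0.0183 and 0.00799). At all gene starts of the genome at E7.5, 45.7% were called higher in epiblast and 2.62% higher in ExE, with a median difference of 5.34 points.

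Wnt3 encodes the WNT ligand of the posterior epiblast. Its E7.5 start window (chr11:103774008-103774786, 61.6 CpG per kb) also overlaps the neighbouring gene Wnt9b or the 5000 bp upstream of it. The epiblast libraries read 0.990 and 2.33% in B6/CAST and 0 and 3.90% in CAST/B6, and the ExE libraries 12.2 and 12.5% and 8.88 and 10.1%. All 4 ExE libraries lay above all 4 epiblast libraries, with a difference of -9.11 points ± 2.06 (SE, epiblast minus ExE, adjusted p = 0.00313). The call held without any single library and was lost in CAST/B6 alone (-7.53 points, adjusted p = 0.107). At E6.5 the start window (chr11:103773865-103774580) read 5.88, 0 and 4.38% in B6/CAST and 1.85, 5.26 and 0% in CAST/B6 epiblast, and 8.14 and 12.5% and 4.17 and 12.0% in ExE. One CAST/B6 ExE library fell within the epiblast range, and the difference of -6.30 points did not pass (adjusted p = 0.144), though it did on the logit scale (adjusted p = 0.0329) and with a variance trend (0.0308).

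Fgf4 encodes the FGF that epiblast supplies to the trophoblast. Its E7.5 start window (chr7:144860211-144861466, 35.8 CpG per kb) read 7.73 and 5.91% in B6/CAST and 9.64 and 8.47% in CAST/B6 epiblast, and 12.4 and 10.6% and 16.5 and 14.3% in ExE. The groups did not overlap, and the difference was -5.49 points ± 1.97 (adjusted p = 0.0274). The call was lost within either cross alone (-4.68 points in B6/CAST and -6.29 in CAST/B6). It was also lost without B6/CAST epiblast replicate 2, CAST/B6 epiblast replicate 2, B6/CAST ExE replicate 1 or CAST/B6 ExE replicate 1, with adjusted p from 0.058 to 0.0694. The GENCODE gene feature of Fgf4 includes a transcript that begins further upstream, and the window at its start was higher in epiblast, by 17.5 points at E7.5 (adjusted p = 0.00182) and 16.4 points at E6.5 (0.0378). At E6.5 (chr7:144860211-144861495) 1 ExE library of each cross was high, at 15.9 and 21.8%, and the others at 6.55 and 9.52% lay within the epiblast range of 5.88 to 11.3% (-4.01 points, adjusted p = 0.378).

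Bmp4 encodes the BMP ligand of the ExE. Its E7.5 start window (chr14:46389519-46390835, 38.0 CpG per kb) read 7.41 and 6.37% in B6/CAST and 7.60 and 5.93% in CAST/B6 epiblast, against 16.3 and 7.92% and 21.1 and 12.5% in ExE. The epiblast libraries were close together and the ExE libraries spread widely, without overlap (-7.61 points ± 2.89, adjusted p = 0.0346). The call was lost within either cross alone. It was also lost without B6/CAST epiblast replicate 2, either CAST/B6 epiblast library, B6/CAST ExE replicate 1 or CAST/B6 ExE replicate 1 (adjusted p 0.0557 to 0.0971). At E6.5 (chr14:46389162-46390824) epiblast values ran from 0 to 17.4% and ExE values from 0 to 18.2% (-5.51 points, adjusted p = 0.345).

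Fgf5 had a low start window in both tissues (chr5:98253518-98254316 at E7.5, 65.1 CpG per kb). The E7.5 epiblast libraries read 6.18 and 1.24% in B6/CAST and 5.63 and 1.91% in CAST/B6, and the ExE libraries 6.75 and 4.85% and 8.57 and 7.98%. Only B6/CAST ExE replicate 2 lay within the epiblast range, and the difference of -3.30 points ± 2.20 did not pass (adjusted p = 0.186), though it did on the logit scale (0.0228) and with a variance trend (0.0142). At E6.5 (chr5:98253825-98254401) 4 of the 5 epiblast libraries with a value read 0 and the other 4.62%, and the ExE libraries read 7 and 0% in B6/CAST and 9.09 and 13.9% in CAST/B6. This window was not tested because 1 library lacks a value.

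The Fgf8 start window was the densest in CpG (chr19:45742718-45743245 at E7.5, 117 per kb) and among the lowest in methylation. The E7.5 epiblast libraries read 0 and 0.641% in B6/CAST and 0 and 0.483% in CAST/B6, and the ExE libraries 3.81 and 1.84% and 0 and 3.33%. Of the 4 ExE libraries, 3 were above all epiblast libraries, and the difference of -1.97 points did not pass (adjusted p = 0.373). On the logit scale and with a variance trend it did (0.0132 and 0.0455). At E6.5 (chr19:45742768-45743422) the values ran from 0 to 11.1% in epiblast and from 0 to 7.58% in ExE, and 3 libraries had none.

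The Nodal start window at E7.5 (chr10:61415240-61418249, 17.6 CpG per kb) reaches mostly upstream of the gene. It read 20.5 and 31.4% in B6/CAST and 28.2 and 26.3% in CAST/B6 epiblast, and 27.8 and 31.4% and 37.1 and 30.3% in ExE. The tissues overlapped (-5.07 points ± 2.99, adjusted p = 0.14), and without B6/CAST epiblast replicate 2 the difference passed (-7.54 points, adjusted p = 0.03). The next window downstream (chr10:61418281-61418955), a CpG-dense one, averaged 1.21% ± 1.06 in epiblast and 3.92% ± 1.37 in ExE (SD, n = 4 each). At E6.5 the start fell in a narrower window (chr10:61417591-61418721), which read 0 to 2.38% in epiblast and 0 to 5.46% in ExE.

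Fgfr2 encodes the FGF receptor of the group, and its start as annotated by RefSeq lies just upstream of a CpG-dense stretch. The E7.5 start window (chr7:130266560-130270071, 13.7 CpG per kb) read 48.9 and 49.2% in B6/CAST and 45.6 and 46.2% in CAST/B6 epiblast, and 44.6 and 42.2% and 38.7 and 41.7% in ExE. The tissues did not overlap (5.67 points ± 1.97, adjusted p = 0.0242). The call was lost on the logit scale (adjusted p = 0.2), with a variance trend (0.106) and within B6/CAST and CAST/B6 alone (0.16 and 0.189). It was also lost without B6/CAST epiblast replicate 1, CAST/B6 epiblast replicate 2, B6/CAST ExE replicate 2 or CAST/B6 ExE replicate 1 (0.0507 to 0.0679). The 3 windows just inside the gene averaged 0.551 to 1.70% in epiblast and 0.673 to 1.24% in ExE. The GENCODE starts fall elsewhere, and their windows differed by -0.138 and -0.307 points. At E6.5 (chr7:130266365-130269407) the libraries with a value read 17.2 to 37.5% in epiblast and 25.6 to 58.8% in ExE, with overlap and without a test.

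Among the inhibitors and the convertase, the Lefty2 start window at E7.5 (chr1:180892300-180894374, 22.2 CpG per kb) read 46.2 and 49.5% in B6/CAST and 57.5 and 52.8% in CAST/B6 epiblast, and 49.6 and 37.2% and 38.8 and 41.5% in ExE. In B6/CAST the tissues overlapped, in CAST/B6 they did not, and the difference was 9.76 points ± 3.51 over both crosses (adjusted p = 0.0276) and 4.49 points in B6/CAST alone (0.449). The call was also lost on the logit scale (0.0589) and without B6/CAST ExE replicate 2, either CAST/B6 ExE library or either CAST/B6 epiblast library (0.0589 to 0.0828). At E6.5 (chr1:180890170-180893403) the epiblast read 63.2 to 80.4% and the ExE 50 to 61.0%, without overlap and without a test, since 1 library lacks a value.

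The Furin start window at E7.5 (chr7:80403070-80405581, 19.1 CpG per kb) read 37.4 and 33.1% in B6/CAST and 42.9 and 46.5% in CAST/B6 epiblast, and 31.6 and 30.7% and 26.1 and 31.9% in ExE. Every epiblast library lay above every ExE library (9.89 points ± 3.05, adjusted p = 0.0142), with a smaller difference in B6/CAST alone (4.09 points, adjusted p = 0.311). The 3 CpG-dense windows around the second start, 2525 to 3104 bp inside the gene, averaged 0.771 to 0.895% in epiblast and 0.628 to 0.869% in ExE. At E6.5 the start window (chr7:80403322-80407674) was wider and higher, with 63.2, 87.5 and 65.3% in B6/CAST and 85.5, 88.9 and 69.8% in CAST/B6 epiblast, and 58.7 and 62.0% and 60 and 66.7% in ExE. One ExE library lay above the lowest epiblast libraries, and the difference of 14.9 points ± 5.69 (adjusted p = 0.0399) turned to -1.60 once library means were subtracted. The E6.5 call was also lost on the logit scale (adjusted p = 0.0714), without the cross term (0.0603), within B6/CAST and CAST/B6 alone (0.309 and 0.104) and with a replicate block (9.99 points, 0.205). It was lost as well without any 1 of 7 of the 10 libraries, the exceptions being B6/CAST epiblast replicates 1 and 2 and CAST/B6 epiblast replicate 2 (adjusted p 0.0611 to 0.103).

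Cer1 encodes a secreted inhibitor of NODAL and BMP ligands, and at E7.5 it had the most methylated start window of the 10 genes (chr4:82884764-82889369, 10.6 CpG per kb). It read 73.1 and 69.9% in B6/CAST and 63.6 and 70.4% in CAST/B6 epiblast, and 60.8 and 73.0% and 54.9 and 70.9% in ExE. The tissues overlapped in both crosses (4.36 points ± 4.09, adjusted p = 0.339). At E6.5 (chr4:82884807-82890316) epiblast read 67.3 to 96.9% and ExE 66.3 to 73.5%, a difference of 12.6 points ± 5.14 (adjusted p = 0.0511). It passed with a variance trend (adjusted p = 0.0445) and without B6/CAST epiblast replicate 2 or CAST/B6 epiblast replicate 2 (0.02 and 0.0324).

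**Figure D1:**
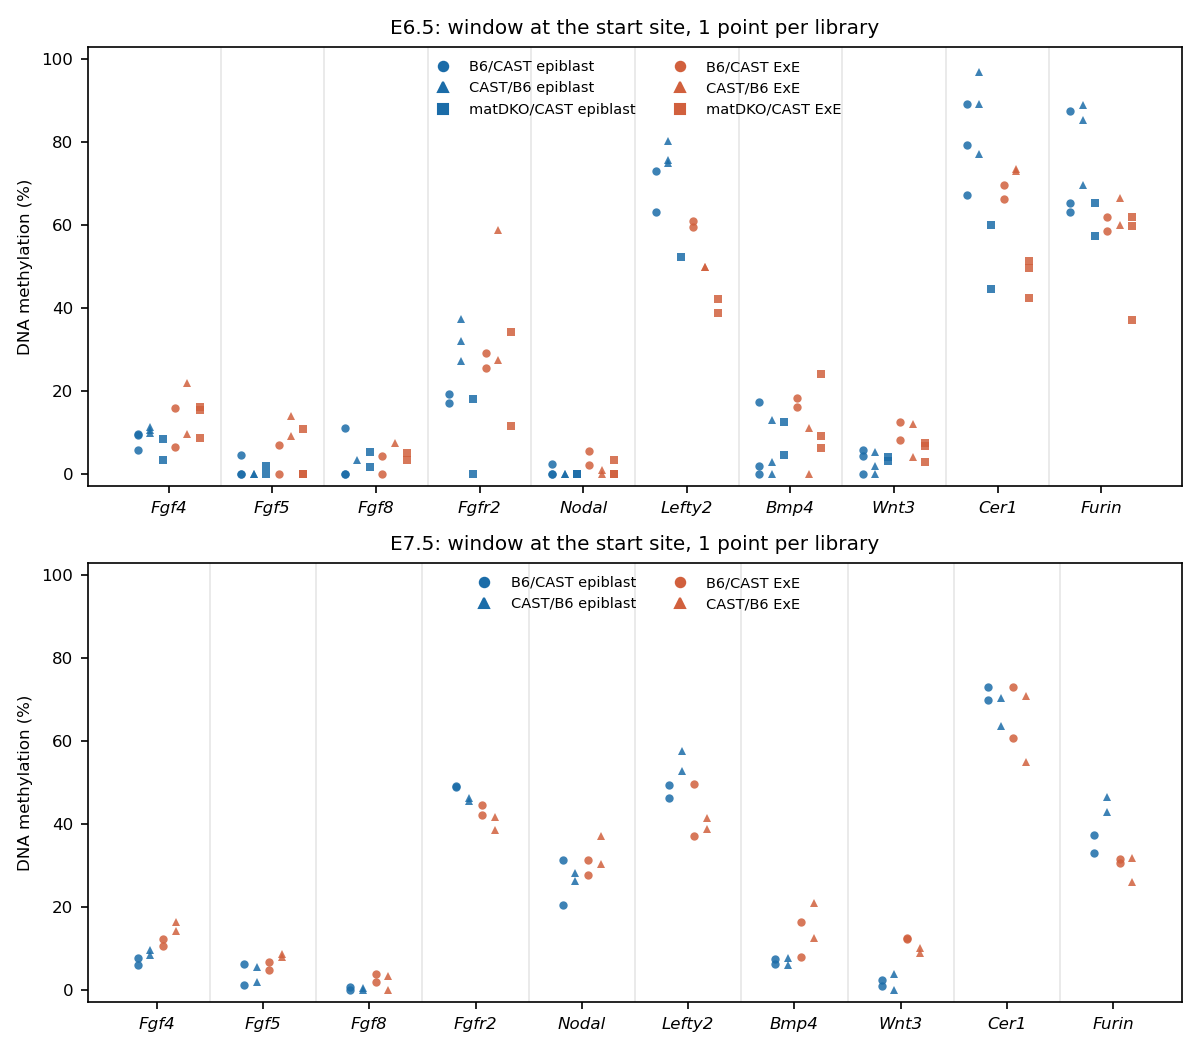
Percent DNA methylation of the start window of each gene (horizontal axis) at E6.5 (upper panel, with matDKO/CAST) and E7.5 (lower panel). Each point is 1 library, coloured by tissue with 1 symbol per cross. At E7.5 the Wnt3 epiblast points lie at 0 to 3.90% and the ExE points at 8.88 to 12.5%, while Cer1 points of both tissues lie between 54.9 and 73.1%.

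The next question was how the rest of each gene compares with its start. At E7.5, 46 of the 109 windows (42.2%) were called higher in epiblast, against 82.9% of the 383556 windows tested in the genome, and 19 (17.4%) were called higher in ExE, against 1.3%. At E6.5, 19 of the 69 windows tested (27.5%, genome 59.6%) were higher in epiblast and 9 (13%, genome 0.663%) higher in ExE. The median difference was 2.95 points over the member windows at E7.5 and 5.85 at E6.5. With library means subtracted, 68 of the 109 windows were called higher in ExE and 2 higher in epiblast, against 20.8 and 19% of all windows under the same setting. All 19 windows kept their direction under every alternative tried for this test. None of the 19 was called at a minimum difference of 20 points, 10 were called in B6/CAST alone and 10 in CAST/B6 alone, and 15 to 18 when 1 library was left out. Of the 46, 20 kept their direction with library means subtracted, and 7 were called the other way.

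Short windows are the CpG-dense ones, because the windows hold a similar number of CpGs (41 to 62 in the member windows at E7.5). Among windows under 2000 bp, 12 of 35 member windows (34.3%) were called higher in ExE at E7.5 against 9.28% of all such windows, and 6 of 19 (31.6%) against 6.03% at E6.5. Between 2000 and 4000 bp, 13.3% of 45 member windows were higher in ExE at E7.5 and 57.8% higher in epiblast, against 1.91 and 75.3% of all. Over 4000 bp the shares were 3.45 and 69% of 29 member windows against 0.119 and 93.4% of all.

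The 19 windows higher in ExE had a median length of 1432 bp and 32.8 CpG per kb, and the 46 higher in epiblast 3905 bp and 12.45 CpG per kb. Group means in the 19 windows ran from 0.906 to 52.1% in epiblast (median 7.94) and from 7.43 to 70.5% in ExE (median 23.4), and in 17 of them (89.5%) no epiblast library reached the lowest ExE library, as in 81.5% of all windows called higher in ExE. The densest windows, with at least 60 CpG per kb, stayed low in both tissues. There were 17 of these in 8 genes at E7.5, with means of 0.281 to 3.74% in epiblast and 0.628 to 10.9% in ExE, and 2 of them, both at Wnt3, were called higher in ExE, against 4.14% of all 13855 tested windows of this density. At E6.5 there were 14 in 7 genes, at 0.487 to 4.56% and 0.423 to 12.8%, of which 8 could be tested and 1, in Fgf4, was called higher in ExE, against 2.45% of 6612.

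**Figure D2:**
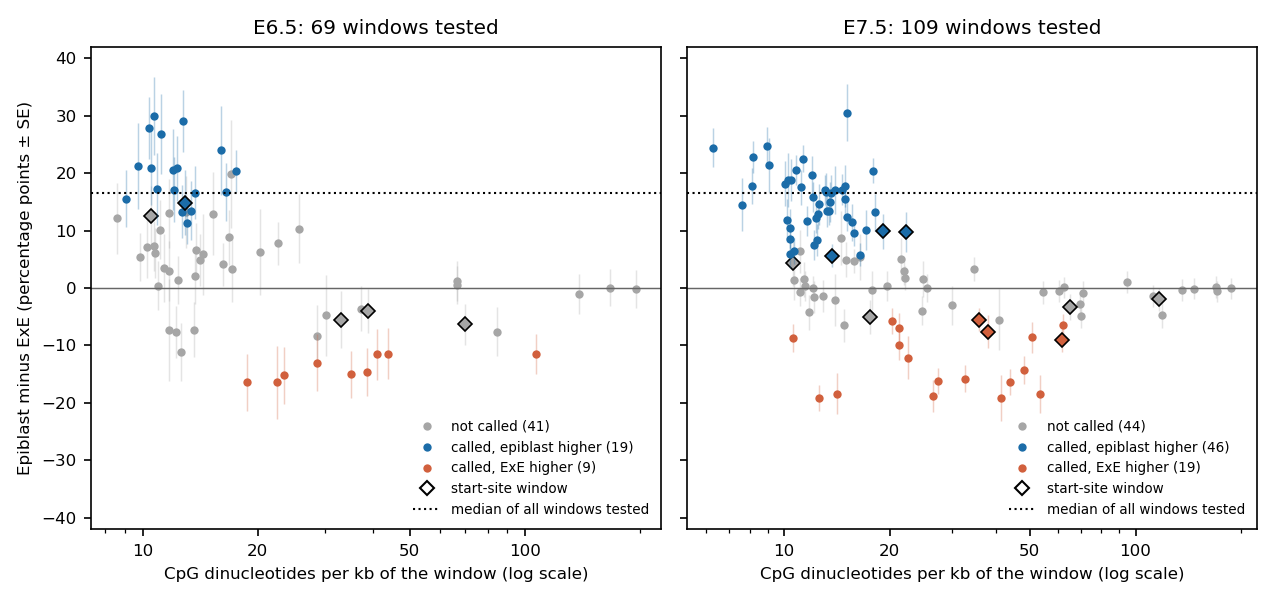
Difference in methylation, epiblast minus ExE in percentage points with its SE, against the number of CpG dinucleotides per kb of each tested member window (log scale), at E6.5 (left, 69 windows) and E7.5 (right, 109 windows). Colours mark the limma call, diamonds the start windows, and the dotted line the median of all windows tested (16.6 and 16.5 points). Windows called higher in epiblast lie at 6.27 to 22.2 CpG per kb at E7.5, and those called higher in ExE at 10.6 to 62.1.

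The windows higher in ExE were found in 8 of the 10 genes at E7.5, all but Nodal and Cer1. Fgf8 had 5 of 9 windows higher in ExE and none higher in epiblast. In Wnt3, 4 of 20 windows were higher in ExE and 9 higher in epiblast. Fgfr2 had 2 and 17 of 32. The remaining genes had 2 and 3 of 6 windows (Fgf4), 2 and 6 of 9 (Fgf5), 2 and 1 of 7 (Bmp4), 1 and 2 of 5 (Lefty2), 1 and 4 of 12 (Furin), 0 and 3 of 6 (Nodal) and 0 and 1 of 3 (Cer1).

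In Fgf8, windows on both sides of the unmethylated start were higher in ExE. The largest difference of the 10 genes in this direction was at its 3′ end (chr19:45733070-45736945), which read 18.8 and 24.9% in B6/CAST and 29.9 and 28.4% in CAST/B6 epiblast, and 40.3 and 41.1% and 47.1 and 50.2% in ExE. The lowest ExE library was over 10 points above the highest epiblast library, and the difference was -19.2 points ± 2.21 (adjusted p = 0.000143). A window upstream of the gene (chr19:45745777-45747208) read 6.31 and 2.30% and 4.55 and 2.04% in epiblast, and 18.0 and 23.9% and 19.1 and 17.3% in ExE (-15.8 points, adjusted p = 0.000345). The other 3 were at -18.5 points (chr19:45736956-45737873), -16.3 points (chr19:45740973-45742041) and -6.97 points (chr19:45743273-45745728). At E6.5, 3 of the 4 Fgf8 windows tested were higher in ExE, by 11.5 to 16.5 points, and the call at the 3′ end (-15.2 points, adjusted p = 0.0209) was lost without CAST/B6 ExE replicate 1 (-9.45 points, 0.0571). It was also lost with a replicate block (0.0559) and within B6/CAST and CAST/B6 alone (0.115 and 0.143).

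At Wnt3, methylation in ExE extended over the start to the upstream side. The longer window on the upstream side (chr11:103771420-103773223), also at Wnt9b, read 3.43 and 2.44% in B6/CAST and 2.04 and 0.807% in CAST/B6 epiblast, and 20.1 and 26.8% and 13.7 and 23.2% in ExE (-18.8 points, adjusted p = 0.000379). No ExE library fell below 13.7%. The window between it and the start window averaged 0.906% in epiblast and 7.43% in ExE (-6.52 points, adjusted p = 0.014). Inside the gene, 34789 bp from the start, a window averaged 12.8% in epiblast and 28.9% ± 0.826 in ExE (chr11:103808107-103809821, -16.2 points, adjusted p = 0.000263). At E6.5 the upstream stretch (chr11:103770825-103772637) averaged 4.46% in epiblast and 17.5% in ExE (-13.0 points, adjusted p = 0.0412).

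Fgf4 and Bmp4 each had a window inside the gene that was higher in ExE in addition to the start window. In Fgf4 (chr7:144861848-144862845) the epiblast libraries read 7.72 and 3.90% in B6/CAST and 7.08 and 8.04% in CAST/B6, and the ExE libraries 21.1 and 24.3% and 16.6 and 21.8% (-14.3 points, adjusted p = 0.000679). In Bmp4 (chr14:46385719-46386924) they read 0.875 and 2.53% and 0.893 and 12.8% in epiblast, and 22.7 and 15.2% and 20.6 and 35.1% in ExE (-19.1 points, adjusted p = 0.00202). The tissues did not overlap in either window, although 1 CAST/B6 epiblast library stood apart from the other 3 at Bmp4. Between these, the CpG-dense windows of Bmp4 averaged 1.15 to 1.60% in epiblast and 1.97 to 2.05% in ExE.

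Fgf5, the epiblast marker gene, had 2 such windows directly downstream of its start, with 1.03% ± 0.875 in epiblast and 9.64% ± 4.51 in ExE (SD, n = 4 each, chr5:98254317-98255339, adjusted p = 0.0142) and with 19.8 and 28.5% (chr5:98255340-98259862, adjusted p = 0.00837). In Fgfr2, a window far inside the gene (chr7:130179191-130182850) averaged 52.1% ± 4.66 in epiblast and 70.5% ± 5.48 in ExE (-18.4 points, adjusted p = 0.00129), and it was the most methylated of the 19. A window near the Fgfr2 start (chr7:130262566-130264747) averaged 16.2 and 28.3%, with overlap (adjusted p = 0.0133). Lefty2 differed by -5.68 points downstream of its start (chr1:180894425-180896787, adjusted p = 0.043). Furin differed by -9.94 points at its 3′ end, where the window also overlaps Fes or its upstream stretch (chr7:80387521-80389694, adjusted p = 0.00755). At E6.5 the 9 windows higher in ExE lay in Fgf8, Fgf4, Fgf5, Lefty2, Furin and Wnt3, and 5 to 7 of them stayed called when 1 library was left out. With a replicate block 1 of the 9 stayed called, and none did in either cross alone or at a minimum difference of 20 points.

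**Figure D3:**
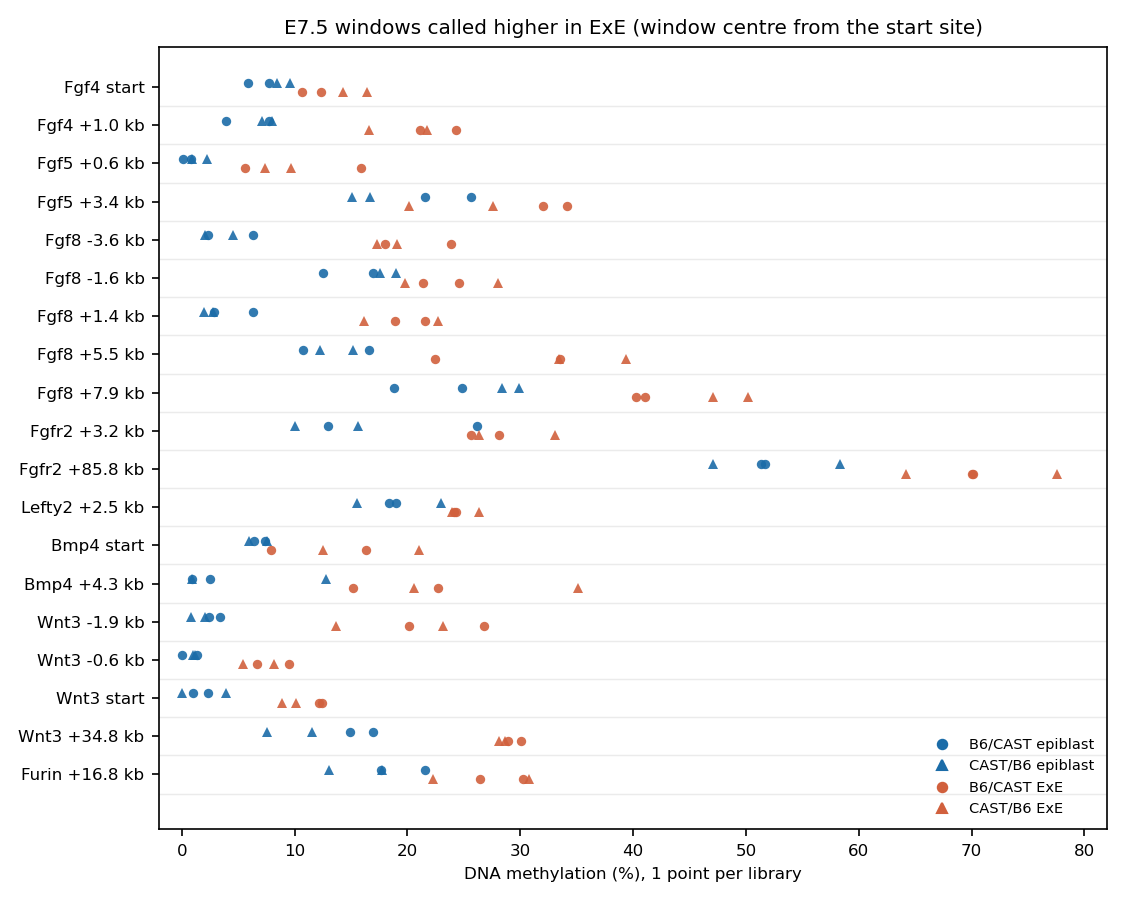
Percent DNA methylation of the 19 member windows called higher in ExE at E7.5, 1 row per window, labelled by gene and by the distance of the window's centre from the start. Each point is 1 library, coloured by tissue with 1 symbol per cross. In most rows the epiblast points lie under 20% and the ExE points to their right, with the Fgfr2 window 85788 bp inside the gene as the row with the highest values.

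Of the other 90 windows at E7.5, 46 were called higher in epiblast and 44 were not called, the latter with a median difference of -0.203 points. The largest difference per gene in favour of epiblast ran from 12.8 points in Furin to 30.5 points in Nodal (with Fgf8 as the exception above and Lefty2 not given). The Nodal window lies in the gene body (chr10:61420734-61424175) and read 82.7 and 86.0% in B6/CAST and 78.5 and 72.0% in CAST/B6 epiblast, and 54.1 and 46.3% and 60.3 and 36.5% in ExE (30.5 points ± 4.97, adjusted p = 0.000585). Its E6.5 counterpart differed by 24.0 points (adjusted p = 0.0198). The Fgf5 window (chr5:98268523-98274226) read 94.6 and 85.3% and 87.9 and 93.2% in epiblast, and 67.2 and 64.8% and 71.3 and 58.8% in ExE (24.7 points, adjusted p = 0.000271). The Fgf4 window, upstream of the gene (chr7:144850026-144856564), read 78.8 and 75% and 79.3 and 82%, and 61.4 and 54.4% and 45.9 and 55.6% (24.5 points, adjusted p = 0.000288). In these 3 genes and in each cross, the highest ExE library was more than 10 points below the lowest epiblast library.

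The Bmp4 window reaches upstream from just before the start (chr14:46390854-46396369), and it read 55.4 and 54.8% in B6/CAST and 69.3 and 65.1% in CAST/B6 epiblast, and 36.8 and 39.2% and 37.6 and 39.7% in ExE. Thus the start window of Bmp4 was higher in ExE and its neighbour higher in epiblast, here by 22.8 points ± 2.84 (adjusted p = 0.000184). The Wnt3 window (chr11:103790612-103795021) read 80.7 and 79.8% and 77.5 and 80.6% in epiblast, and 60.1 and 62.4% and 54.5 and 51.5% in ExE (22.6 points, adjusted p = 0.000111). The Fgfr2 window (chr7:130251289-130256376) differed by 21.5 points, with epiblast libraries from 54.5 to 78.1%. For Cer1 (chr4:82881619-82884763) and Furin (chr7:80405613-80410011) the differences of 15.5 and 12.8 points became -0.813 and -3.50 once library means were subtracted. The same setting ended the calls of Fgf5 (8.41 points, adjusted p = 0.0655), Fgfr2 (5.16 points, 0.375), Bmp4 (6.52 points, 0.0973) and Wnt3 (6.23 points, 0.0882). At E6.5 the windows that overlap these most passed the test in Fgfr2 and Nodal (27.9 and 24.0 points), not in Bmp4, Cer1 and Furin (4.93 to 12.1 points), and were not tested in Fgf5 and Wnt3. With library means subtracted both calls were lost (Fgfr2 11.4 points, adjusted p = 0.135, and Nodal 7.49 points, 0.488). The Fgfr2 call was also lost in CAST/B6 alone (0.108), and the Nodal call in B6/CAST and CAST/B6 alone (0.0824 and 0.191) and with a replicate block (0.12). At Fgf4 the E6.5 window (chr7:144856118-144860206) shares only 447 bp, or 6.84%, of the E7.5 one and is another stretch, which was higher in epiblast by 20.6 points. This Fgf4 call was lost with library means subtracted (4.12 points, adjusted p = 0.694), with a replicate block (0.1) and in B6/CAST and CAST/B6 alone (0.308 and 0.0714). It was also lost without B6/CAST epiblast replicate 3, CAST/B6 epiblast replicate 1 or 2 or CAST/B6 ExE replicate 2 (adjusted p 0.0533 to 0.0949), and the Nodal call without B6/CAST ExE replicate 1 or CAST/B6 ExE replicate 2 (0.0728 and 0.0769). The Bmp4 window passed without B6/CAST ExE replicate 1 or B6/CAST epiblast replicate 3 (0.0466 and 0.0225).

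Over whole gene regions at E7.5, 6 of the 10 genes were called higher in epiblast (genome 95.4%) and 1, Fgf8, higher in ExE (genome 1.44%). Each of the 6 turned lower in epiblast once library means were subtracted, by 4.31 to 12.1 points. The Fgf8 region averaged 17.3% ± 1.08 in epiblast and 26.6% ± 1.93 in ExE (SD, n = 4 each), with library values of 16.5 to 18.9% and 25.1 to 29.5% (-9.31 points, adjusted p = 6.29e-05). This placed it at percentile 0.522 of all gene regions. The Fgf5 region averaged 65.5% ± 2.53 and 53.5% ± 1.74 (12.0 points, adjusted p = 4.63e-05) and the Nodal region 49.0% ± 1.47 and 37.0% ± 2.30 (12.0 points, adjusted p = 4.78e-05, percentile 53.5). Fgf4, Fgfr2, Wnt3 and Cer1 differed by 4.27 to 8.52 points, and Lefty2, Bmp4 and Furin by 0.229 to 2.11 points without passing. Of these 3, the Bmp4 region passed in either direction by how its windows were combined, at 8.40 points when weighted by length (adjusted p = 0.00113) and -4.29 points over the gene body alone (0.00259). Lefty2 passed over the gene body alone (6.05 points, adjusted p = 0.0173), and Furin when weighted by length (4.02 points, 0.00589), with the start window included (2.76 points, 0.0119), on the logit scale (0.0443) and with a replicate block (0.0407). The Fgf4 value depended on the windows upstream, since it was -2.87 points over the gene body alone. On the logit scale the Fgf4 and Wnt3 regions did not pass (adjusted p = 0.967 and 0.663).

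At E6.5, 3 regions were higher in epiblast, Fgfr2, Nodal and Wnt3 (genome 81%), and Fgf8 was again higher in ExE (genome 1.13%), with 19.8% ± 3.32 in epiblast (n = 6) and 29.8% ± 3.24 in ExE (n = 4). The Fgf8 epiblast libraries read 14.8 to 23.5% and the ExE libraries 26.4 to 34.1%, a difference of -9.95 points (adjusted p = 0.00201, percentile 0.531). The Nodal region was higher in epiblast by 11.8 points, Wnt3 by 9.14 and Fgfr2 by 8.64, and with library means subtracted these became -4.73, -7.35 and -7.85 points. The Wnt3 call was lost on the logit scale (adjusted p = 0.0715). The Fgf5 region, at 1.02 points, passed without B6/CAST epiblast replicate 3 or CAST/B6 ExE replicate 1 (11.6 and 12.5 points). Weighted by length, the Fgf4 region passed at 13.5 points (adjusted p = 0.0056), Lefty2 at 12.5 points (0.023) and Fgf5 at 7.22 points (0.0412).

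Other genes of the same pathways, 62 in all, were counted as well. At E7.5, 4 of the 62 start windows were higher in epiblast and 8 higher in ExE, against 45.7 and 2.62% of all gene starts, with a median difference of -0.123 points against 5.34. The lists were 15 FGF genes (0 higher in epiblast, 2 higher in ExE), 13 Nodal genes (2 and 2), 15 BMP genes (1 and 0), 14 WNT genes (1 and 4) and 5 targets (0 and 0). The 8 were Fgf10 and Fgf15 (FGF ligands), Tdgf1 and Lefty1 (the Nodal co-receptor and an inhibitor), and Dkk1, Lef1, Sfrp1 and Wnt5a of the WNT list. Tdgf1 differed by -30.4 points (adjusted p over gene starts 0.000122), Lefty1 by -17.3 and Dkk1, a WNT inhibitor, by -13.7. The 4 higher in epiblast were Gdf3, Smad2, Bmpr1a and Sfrp5. Of the 62 gene regions, 48 were higher in epiblast and 4 higher in ExE at E7.5, against 95.4 and 1.44% of all regions, with a median of 6.75 points against 11.3 for all regions. Among the regions higher in ExE was that of Gsc, a target of NODAL in the streak, at -16.6 points at E7.5 and -23.6 at E6.5. At E6.5, 1 of 37 start windows tested was higher in epiblast and 1, Dkk1, higher in ExE (-14.2 points, all gene starts 40 and 1.34%).

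The matDKO/CAST libraries address the question of what is left when the oocyte lacks DNMT3A and DNMT3B. They were compared with B6/CAST, the cross in the same direction. Genome-wide the median window was lower in matDKO/CAST by -16.4 points in epiblast and -12.4 in ExE, and over the member windows by -10.7 and -7.98. In epiblast 5 of 60 member windows (8.33%) were called lower, against 23.4% of all windows, and none was called higher. In ExE none of 69 was called, nor any in the genome (0%), with 11 member windows (15.9%) and 25.8% of all windows at an unadjusted p under 0.05 (limma). No start window was called in either tissue.

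The 5 windows were in Fgfr2 and Wnt3, and all were in gene bodies. At chr7:130178255-130182792 in Fgfr2 the B6/CAST epiblast libraries read 58.5, 63.2 and 64.3% and the matDKO/CAST libraries 32.6 and 23.1% (-34.2 points ± 5.44, adjusted p = 0.0132). In ExE the same window read 70.8 and 57.3% in B6/CAST and 58.1, 69.4 and 71.1% in matDKO/CAST, so that the groups overlapped there. The difference between the tissues in this effect was 36.4 points, at an unadjusted p of 0.00159 and an adjusted p of 0.371. At chr7:130163128-130168334, at the 3′ end of Fgfr2, epiblast read 88.7 to 93.9% in B6/CAST and 71.4 and 40% in matDKO/CAST (-34.9 points ± 8.70, adjusted p = 0.0277).

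The 3 Wnt3 windows stood at 50 to 71.1% in the matDKO/CAST epiblast libraries. At chr11:103777288-103781462, also at Wnt9b, B6/CAST read 69.2, 73.4 and 80.0% and matDKO/CAST 51.4 and 50% (-23.5 points, adjusted p = 0.0266). ExE there read 63.3 and 48.4% in B6/CAST and 20.9, 43.9 and 22.5% in matDKO/CAST, without overlap, and did not pass. At chr11:103804236-103808107 epiblast fell from 67.4 to 78.9% to 50% in both matDKO/CAST libraries (-24.3 points, adjusted p = 0.0449). At chr11:103817744-103822252, which also overlaps Nsf or its upstream stretch, it fell from 84.4 to 89.7% to 50 and 71.1% (-26.9 points, adjusted p = 0.0371). The count of 5 changed to 7 without B6/CAST epiblast replicate 1 or either matDKO/CAST library, to 2 without B6/CAST epiblast replicate 3 and to 1 without B6/CAST epiblast replicate 2. Where 1 matDKO/CAST library was left, it was assumed to vary like the libraries of the other groups. On the logit scale, with a replicate block and with library means subtracted no member window was called (0 each), and with both wild-type crosses pooled as the control 20 of 60 were called lower, against 47.7% of all windows.

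Gene regions were tested as well. In epiblast 5 of 10 regions were lower in matDKO/CAST (genome 70.1%). The Wnt3 region read 59.7, 67.8 and 67.1% in B6/CAST and 45.4 and 49.6% in matDKO/CAST (-17.4 points, adjusted p = 0.00644), and the Fgfr2 region 74.7, 79.9 and 75.5% and 65 and 61.1% (-13.7 points, adjusted p = 0.00739). The Nodal region read 58.9, 55.8 and 57.7% and 47.9 and 37.9% (-14.6 points, adjusted p = 0.00929), and the Fgf5 region 43.7, 51.2 and 50.5% and 36.8 and 30.3% (-14.9 points, adjusted p = 0.0104). In these 4 regions no matDKO/CAST library reached a B6/CAST library. The library means over autosomal windows were apart in the same way, at 53.1 to 54.7% in matDKO/CAST and 65.9 to 74.85% in B6/CAST epiblast. The share of all regions apart in this way was not counted. Lefty2, whose region here is 1 window, fell by 23.0 points (adjusted p = 0.0301 over regions), with 1 B6/CAST library at 92.1% against 65.6 and 70.3%. The Lefty2 call was lost without B6/CAST epiblast replicate 3 or either matDKO/CAST library (adjusted p 0.0559 to 0.166), and the Fgf5 call without matDKO/CAST epiblast replicate 3 (0.0614). With a replicate block all 5 calls were lost (adjusted p 0.0504 to 0.0734), and over the gene body alone that of Nodal was (0.0686).

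In ExE 6 of 10 regions were lower in matDKO/CAST (genome 58.9%). Nodal read 57.0 and 53.2% in B6/CAST and 32.5, 33.5 and 36.0% in matDKO/CAST (-21.1 points, adjusted p = 0.0123), Wnt3 44.6 and 45.6% and 30, 36.1 and 25.6% (-14.5 points, adjusted p = 0.0171), and Cer1 68.4 and 75% and 39.6, 46.1 and 50% (-26.5 points, adjusted p = 0.0253). The Cer1 region here is 1 window, which was not called in the test over all windows (adjusted p = 0.145). The matDKO/CAST libraries of these 3 genes were all well below both B6/CAST libraries. So were the library means over autosomal windows, at 39.6 to 41.8% against 53.48 and 53.55%, and the share of all regions apart in this way was not counted. Fgf4, Fgf8 and Lefty2 differed by -9.00, -9.39 and -11.0 points (adjusted p 0.0408 to 0.0499). All 6 calls were lost without either of the 2 B6/CAST ExE libraries, where the 1 library left in the group is assumed to vary like those of the other groups. The Fgf8 and Lefty2 calls were lost without any 1 of the 3 matDKO/CAST libraries, the Fgf4 call without replicate 2 or 3 (adjusted p = 0.0899 and 0.0784) and the Cer1 call without replicate 1 (0.0681). With a replicate block the Fgf4, Fgf8 and Lefty2 calls were lost (0.114, 0.131 and 0.0779). The Fgf5 region, at -9.74 points, passed without matDKO/CAST ExE replicate 3 (adjusted p = 0.0457). The Furin region did not pass in epiblast (-6.59 points, adjusted p = 0.0651) or ExE (-7.12 points, 0.0539). It passed in both when weighted by length (0.0271 and 0.0387) or with the wild-type crosses pooled (0.035 and 0.0246), and in ExE on the logit scale (0.0407). With library means subtracted, no region was called in either tissue, and the Fgf5, Fgfr2 and Nodal epiblast regions (1.81, 3.05 and 2.14 points) and the Fgf4, Fgf8 and Lefty2 ExE regions (3.43, 3.05 and 1.41) turned higher in matDKO/CAST. No member passed the test of a difference in this effect between the tissues, with 0 of 48 windows and 0 of 10 regions called, as 0% of all windows and regions were (limma, unadjusted p under 0.05 for 2 member windows and for the Fgfr2 region, against 8.8% of all windows and 8.19% of all regions).

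The start windows that were low in wild type were low in matDKO/CAST as well. In epiblast they read 4.05 and 3.03% at Wnt3, 3.43 and 8.33% at Fgf4, 4.65 and 12.5% at Bmp4 and 0% in both libraries at Nodal. In ExE the Wnt3 start read 2.90, 6.67 and 7.53% and the Fgf4 start 8.57, 15.5 and 16.1%. The Cer1 start read 44.7 and 60% in epiblast and 49.8, 42.5 and 51.3% in ExE, which is below every B6/CAST and CAST/B6 library, with differences of -26.3 points (adjusted p = 0.0577) and -20.1 points (0.133). With both wild-type crosses pooled as the control, the Cer1 start passed in both tissues (-30.9 points, adjusted p = 0.0159, and -22.8 points, 0.0336).

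**Figure D4:**
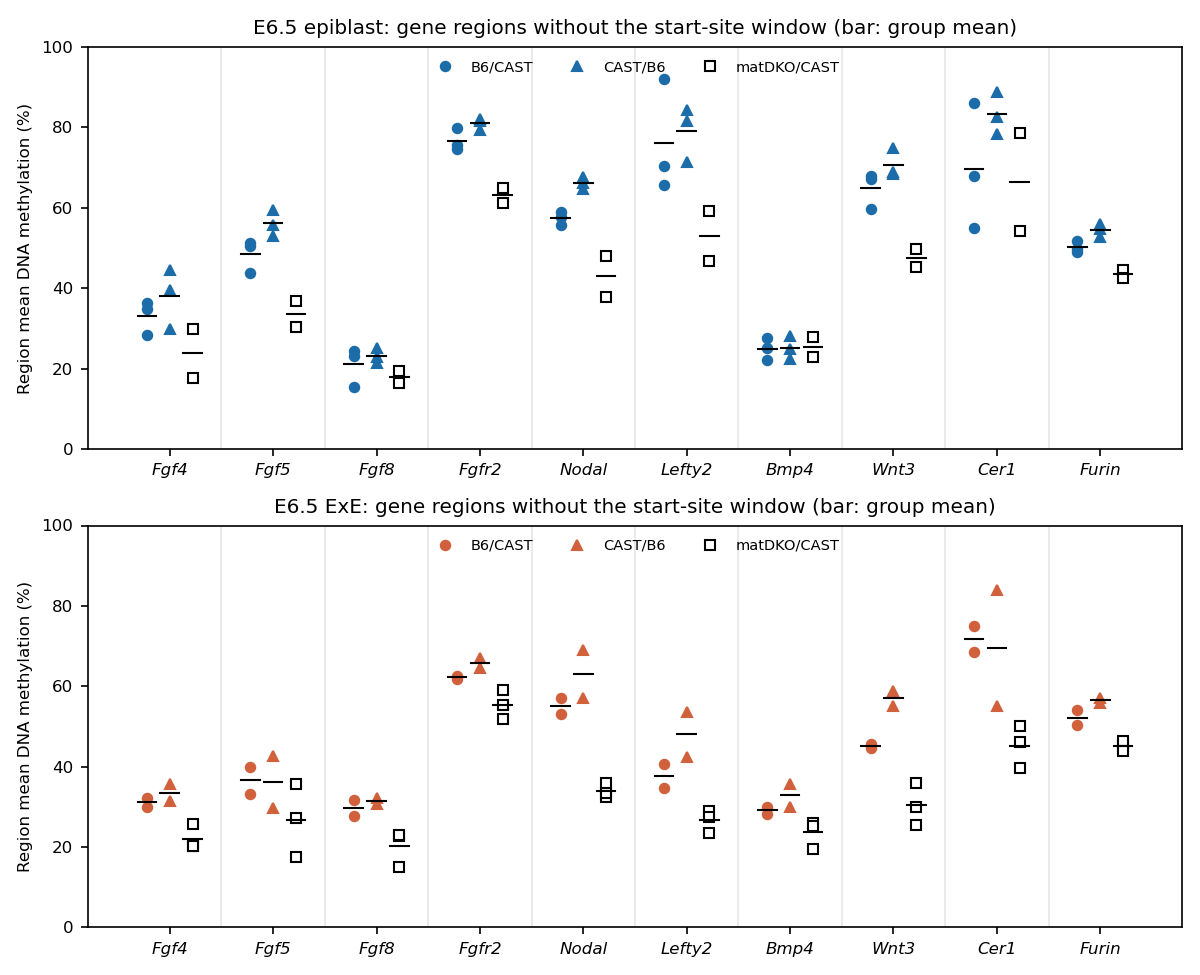
Mean percent DNA methylation of the gene regions without the start window in E6.5 epiblast (upper panel) and ExE (lower panel). Filled symbols are B6/CAST and CAST/B6 libraries, open symbols matDKO/CAST libraries, and bars group means. The open symbols lie below the filled ones at Wnt3, Fgfr2 and Nodal in epiblast and at Nodal, Wnt3 and Cer1 in ExE, while at Bmp4 in epiblast the difference was 0.390 points. Library means over autosomal windows were lower in matDKO/CAST too.

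The reciprocal crosses were compared to see whether maternal strain alters these levels. No member window and no member region was called, in either tissue at either day (limma, 60 and 69 windows tested at E6.5 and 109 at E7.5). The share called in the genome was 0% for windows in all 4 comparisons and for regions in all but E6.5 ExE, where 20.7% of regions were called. At an unadjusted p under 0.05 there were 3 and 5 member windows in E6.5 epiblast and ExE (5 and 7.25%, against 14.2 and 23.3% of all windows) and 7 and 4 in E7.5 (6.42 and 3.67%, against 5.8 and 5.77%). CAST/B6 was higher by a median of 2.92 and 4.48 points over the member windows in E6.5 epiblast and ExE, against 8.00 and 11.5 points over all windows, and by 0.696 and 0.378 points at E7.5, against 1.61 and 0.225. The Wnt3 region in E6.5 ExE read 44.6 and 45.6% in B6/CAST and 58.9 and 55.2% in CAST/B6 (windows with a value in the matDKO/CAST libraries too), a difference of 11.9 points (unadjusted p = 0.0179, adjusted p = 0.0677). Both B6/CAST ExE libraries of that day carry the reimport mark and neither CAST/B6 library does, so that the mark and the cross cannot be told apart there. In E7.5 epiblast the Lefty2 region was higher in CAST/B6 by 7.15 points (unadjusted p = 0.0138, adjusted p = 0.839), with 43.8 and 46.5% in B6/CAST and 49.5 and 55.2% in CAST/B6.

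The parental alleles were separated at E7.5 only. Reads without a strain SNP were lost, so that 65 member windows could be tested in epiblast and 96 in ExE, and the Fgf4 start window had no allelic value in any library. No member window differed between maternal and paternal alleles past the threshold, and in the genome 0.00838% of windows in epiblast and 0.00722% in ExE did (limma). At an unadjusted p under 0.05 there were 6 member windows in epiblast (9.23%, against 4.87% of all windows) and 3 in ExE (3.12%, against 6.38%). No member region was called, against 0.0117% of regions in epiblast and 0% in ExE, with 1 and 0 member regions at an unadjusted p under 0.05, as 5.42 and 8.25% of all regions had. The paternal allele of the imprinted Peg3 promoter, by contrast, read at most 5% and the maternal allele at least 73.5% in every library with a value.

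No start window passed the test of a parental difference. For Nodal the maternal allele read 28.9 and 24.2% in B6/CAST and 36.5 and 28.3% in CAST/B6 epiblast, and the paternal allele 23.2 and 26.3% and 31.2 and 36.4%. For Bmp4 in ExE, where the window is more methylated, the maternal allele read 19.5 and 2.33% and 19.1 and 12.4%, and the paternal allele 13.2 and 23.3% and 17.1 and 3.16%. Both alleles of Bmp4 thus took low and high values in ExE. The Furin start in epiblast read 28.4 and 26.3% and 37.5 and 42.9% on the maternal allele, and 6.67 and 20.8% and 29.4 and 21.4% on the paternal. The maternal allele was higher in 4 of 4 epiblast libraries, by 14.2 points on average (unadjusted p = 0.0273, adjusted p = 0.94). The Cer1 start in ExE was lower on the maternal allele by 12.6 points (unadjusted p = 0.0224, adjusted p = 0.777), where B6/CAST replicate 1 went the other way with 63.1 against 61.5%.

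In Wnt3, 4 windows away from the start were lower on the maternal allele in epiblast at an unadjusted p under 0.05, by 14.4 to 21.2 points, and none passed the adjustment (0.94). They lie at chr11:103767266-103771367 upstream and at chr11:103795056-103796720, chr11:103804495-103808046 and chr11:103811616-103812937 in the gene body. The upstream one also differed by strain, with the B6 allele 26.5 points above the CAST allele (unadjusted p = 0.0109, adjusted p = 0.748). In ExE the other windows below an unadjusted p of 0.05 were chr5:98268523-98274226 in Fgf5, higher on the maternal allele by 16.0 points, and chr19:45736956-45737873 in Fgf8, lower by 16.6 points (adjusted p = 0.777 for both).

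Differences between the B6 and the CAST allele passed for no member window or region, and for 0% of windows and regions in the genome in both tissues (limma). At an unadjusted p under 0.05 there were 5 member windows in each tissue (7.69 and 5.21%, against 6.65 and 8.73% of all windows in epiblast and ExE) and 1 and 3 member regions, against 7.89 and 11.2% of all regions. The largest in ExE was inside Fgfr2 (chr7:130262566-130264747), with the B6 allele 23.4 points below the CAST allele (unadjusted p = 0.00669, adjusted p = 0.539). The Nodal region in ExE was 6.30 points higher on the B6 allele (unadjusted p = 0.0174, adjusted p = 0.375).

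**Figure D5:**
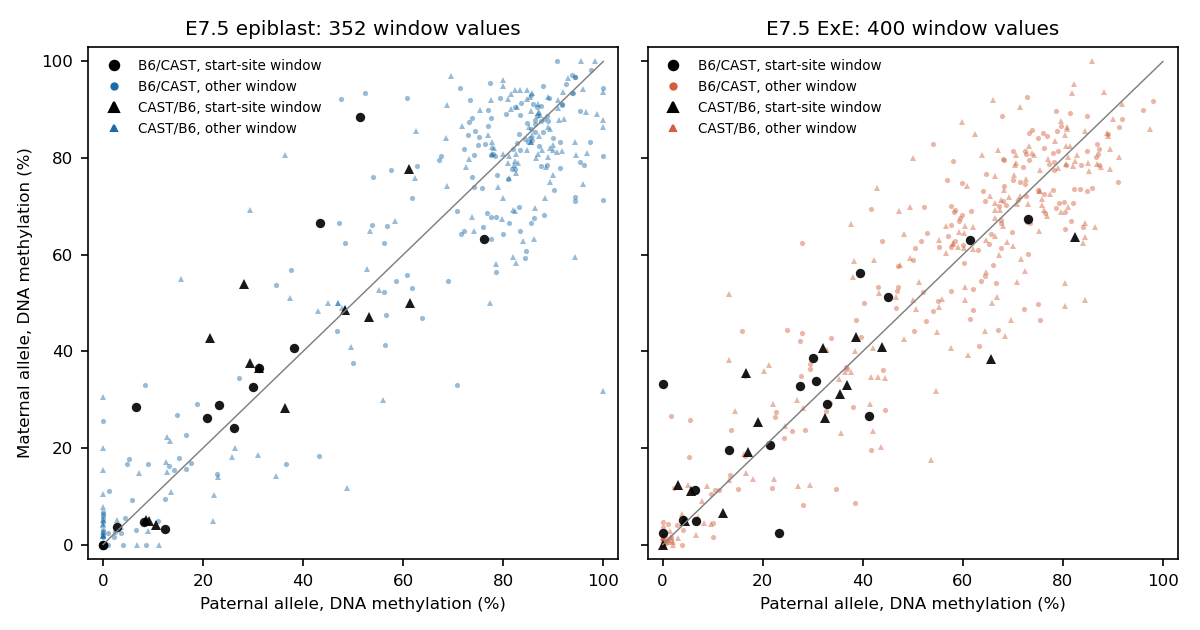
Maternal (vertical axis) against paternal (horizontal axis) percent DNA methylation of member windows at E7.5 in epiblast (left, 352 values) and ExE (right, 400 values). Each point is 1 window in 1 library, black for start windows, and the line marks equal values. Points scatter on both sides of the line, and no window passed the test of a parental difference.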

How the data were processed

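DNA methylation was measured in 23 libraries of mouse epiblast and ExE. The submitters' processing notes name Trim Galore 0.4.4, Bismark 0.20.0 and GRCm38. The study's methods name another Bismark version, and which made these files is not given in the sources used here. Per the methods, the authors aligned reads to a genome with strain SNPs masked. The 3 deposited files give percent methylation in windows labelled as of 100 CpGs, which at the members hold 41 to 67 CpG dinucleotides of the reference, for E6.5, for E7.5 and for each parental allele at E7.5. The deposited percent values are unscaled and carry no coverage, so depth and counting intervals are unknown. The E7.5 libraries went through bisulphite conversion more than once because conversion was poor at first, and matDKO/CAST reads had further alignment steps. How either affects the percentages was not tested. One B6/CAST E6.5 epiblast column bears a number that no label has and was used by its group only, printed as replicate 2. In the replicate block it formed a level of its own. In the wild-type E6.5 tissue fit with that block, its level and that of replicate 3 held epiblast libraries only. Those libraries then gave no direct comparison of the tissues.

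Autosomal windows with a value in every library of a fit were tested with limma 3.58.1 (lmFit and eBayes, R 4.3.3, with the data.table package, version 1.17.8) on percentages, with Benjamini-Hochberg adjustment over all windows and a threshold of 0.05. The tissue test had the cross as a covariate. The matDKO/CAST and cross tests used group means, and the allele tests the maternal minus paternal difference per library with the cross coded with opposite signs. Gene regions were unweighted means of windows without the start window, tested over all autosomal protein-coding genes. Only the window fits of E7.5 tissue and of matDKO/CAST epiblast were tested on simulated data, with shifts placed at middle methylation levels. Gene regions, shifts in low windows and the other comparisons were not simulated. The labels do not say that replicates are independent in each case, so p-values measure the spread between these libraries. Genes and starts were those of RefSeq on GRCm38.p6. Python 3.11.15, pandas 2.3.3, numpy 2.4.6 and matplotlib 3.10.9 served for the rest. The members and gene lists were chosen with earlier results of these data known. Values are given for each start window and for the other window per gene with the largest tissue difference among those called at E7.5, and for windows called in another comparison. The windows higher in ExE were singled out after their values were seen. The window of this kind at Lefty2 is not reported here.

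The alternatives were the logit scale, eBayes with trend and robust settings, subtraction of library means, a minimum difference of 20 points, at least 2 values per group, leaving out each library, a replicate block, no cross term, a pooled wild type, length weighting, the gene body alone, the start window included in the region, other annotated starts, and each cross alone.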

Additional observations from a re-analysis of the deposited data

Results flagged for a closer look

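In 3 CpG-dense windows at E7.5 the 2 crosses differed in opposite directions in every library, at levels under 2%, and these differences were not tested. In the Furin window at chr7:80402164-80402510 epiblast was below ExE in B6/CAST (0.168 against 1.22%) and above it in CAST/B6 (1.37 against 0.519%), so that the tissue difference of B6/CAST was -1.9 points from that of CAST/B6. In the Furin window at chr7:80402763-80403069 the tissue differences were 1.57 and -1.03 points, which are 2.6 points apart, and by the same 2.6 points the cross difference was not the same in epiblast and ExE. In the Fgfr2 window at chr7:130264832-130265627 both kinds of comparison were 1.55 points apart. Groups held too few libraries to look for single libraries that stand apart.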

How the results depend on the processing

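The depth behind each percentage is unknown and groups hold 2 or 3 libraries. Subtracting the mean of each library changed the number of member windows higher in ExE from 9 to 26 at E6.5 and from 19 to 68 at E7.5, and of those higher in epiblast from 19 to 0 and from 46 to 2. Of all windows, 8.66% at E6.5 and 20.8% at E7.5 were then called higher in ExE, and 6.25 and 19% higher in epiblast. Regions called at E6.5 went from 4 to 8, those higher in ExE from 1 to 8 (E6.5) and from 1 to 10 (E7.5), and those higher in epiblast from 3 and 6 to 0 at either day. Counts of windows and regions lower in matDKO/CAST epiblast and of regions lower in ExE became 0. Differences then reversed as follows. E6.5 regions came to -13.2 (Fgf4), -15.5 (Fgf5), -7.85 (Fgfr2), -4.73 (Nodal), -13.6 (Lefty2), -13.5 (Bmp4) and -7.35 points (Wnt3), and the Furin start to -1.60. E7.5 regions came to -9.99 (Fgf4), -4.31 (Fgf5), -9.58 (Fgfr2), -4.35 (Nodal), -14.9 (Lefty2), -16.1 (Bmp4), -12.1 (Wnt3), -7.81 (Cer1) and -14.2 points (Furin). E7.5 starts came to -10.7 (Fgfr2), -6.57 (Lefty2), -12.0 (Cer1) and -6.44 (Furin), and other windows to -0.813 (Cer1) and -3.50 (Furin). The matDKO/CAST effect came to 1.81 (Fgf5), 3.05 (Fgfr2) and 2.14 points (Nodal) in epiblast regions and 3.43 (Fgf4), 3.05 (Fgf8) and 1.41 (Lefty2) in ExE regions. By construction this setting removes the genome-wide difference.

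With a minimum difference of 20 points, 10 of 28 windows (0 higher in ExE, 10 in epiblast) remained at E6.5 and 8 of 65 (0 and 8) at E7.5, no region at either day (0), and 1 and 2 regions for matDKO/CAST epiblast and ExE. Within B6/CAST or CAST/B6 alone, an alternative chosen after seeing the data, 3 and 5 windows were called at E6.5 (0 and 0 higher in ExE, 3 and 5 in epiblast) and 35 and 43 at E7.5 (10 and 10 higher in ExE, 25 higher in epiblast in B6/CAST). Without the cross term 5 windows were higher in ExE at E6.5. On the logit scale no window was lower in matDKO/CAST epiblast (0), 2 E7.5 regions were higher in ExE and the Bmp4 region came to -0.502 logits. Length weighting gave 7 regions at E6.5 (6 higher in epiblast). The gene body alone gave 2 E7.5 regions higher in ExE, -2.87 points at Fgf4 and -4.29 at Bmp4, and 3 matDKO/CAST ExE regions, as did a robust variance trend (3). With both wild-type crosses as the control, 20 of 60 epiblast and 9 of 69 ExE windows were lower in matDKO/CAST, against 47.7 and 26.3% of all windows. GENCODE gene starts, also chosen after seeing the data, gave 16.4 (E6.5) and 17.5 points (E7.5) at Fgf4 and -0.138 at Fgfr2, whose principal transcript gave -0.307. The cause of these other changes was not tested.

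Same-numbered epiblast and ExE libraries had deviations that correlated little over windows (r from -5.47e-05 to 0.0506, under 0.1 for every pair), and were not treated as pairs. At E7.5, however, the library means of same-numbered libraries moved together in both crosses, with replicates 1 and 2 at 74.4 and 71.7% in epiblast and 58.9 and 56.3% in ExE of B6/CAST, and at 74.0 and 75.6% and 56.1 and 59.2% in CAST/B6. Whether the numbers mark a shared litter or embryo is not given in the sources used here. With the replicate block 8 windows were called at E6.5 (2 higher in ExE, 6 in epiblast), 0 windows and 0 regions in matDKO/CAST epiblast and 3 regions in matDKO/CAST ExE.

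Leaving out 1 library in turn gave 20 to 26 windows at E6.5 (5 to 8 higher in ExE, 15 to 20 in epiblast) and 56 to 62 at E7.5 (16 to 18 and 39 to 45), 4 to 5 regions at E6.5 (1 and 3 to 4) and 7 at E7.5 (1 and 6). It gave 1 to 7 windows and 3 to 5 regions lower in matDKO/CAST epiblast, and 0 windows and 0 to 4 regions in ExE. Cross, parent, strain and matDKO/CAST by tissue counts were 0 in every setting run.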
